A study of Mus musculus with 6 samples.

Results

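The promoters of 35 genes of base, nucleotide and mismatch excision repair were followed in GL261, a mouse glioma cell line, at 3 oxygen levels. The list was given by name and holds 19 genes of base excision repair, 12 of nucleotide excision repair and 4 of mismatch repair, out of 15635 genes with a promoter peak that could be compared. A promoter peak is a stretch of open chromatin lying within 2000 bp of an annotated start site in GENCODE M21 on the mm10 build. The cells of all groups stably carried pEGFP-N1 and were fixed with formaldehyde before lysis. They were kept at 21% O2 (normoxia) or, in a hypoxic chamber, for 16 h at 1% O2 or at <0.1% O2, with 2 ATACseq libraries per condition. The labels do not say whether the 2 libraries of a condition came from separate cultures, so the p-values measure the spread between these libraries, which may be technical. The standard errors rest mostly on the spread pooled over peaks of like height (median prior degrees of freedom 34.5, against 3 from the libraries of a peak), so a gene whose own libraries differ widely has much the same error as its neighbours. The cells were measured in bulk, and fewer cells with an open promoter cannot be told apart from less opening in each cell.

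Cells mend most small DNA lesions by cutting out the damaged strand and copying the intact one. In base excision repair a glycosylase removes a single altered base, an endonuclease opens the backbone, and a polymerase and a ligase fill and seal the gap. Nucleotide excision repair removes a longer stretch around bulky lesions such as those left by ultraviolet light, and it starts either from a scan of the whole genome or from an RNA polymerase stalled on a transcribed strand. Mismatch repair corrects the errors of replication, with MutS pairs that find the mismatch and MutL pairs that start the removal of the new strand. Repair genes are mostly housekeeping genes with CpG-rich promoters, and lowered repair capacity is a known feature of hypoxic tumour cells.

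ATACseq uses a transposase that inserts into accessible DNA, so that open regions gather fragments. The deposited peak lists gave a fold over background and a p-value for each peak, which together fix the number of fragments stacked at its highest point, here called the summit pileup. The lists held 33006 to 43554 peaks and the background put the genome coverage at 2.16 and 2.36 at 21% O2, 2.93 and 2.99 at 1% O2 and, at <0.1% O2, 3.35 and 3.18, so that both normoxic libraries were the shallowest. A scaled pileup is the summit pileup divided by a factor for its library, and all log2 changes below are of scaled pileups, relative to the median of the 28432 peaks present in all 6 libraries. With scaling by genome coverage the median of these peaks moved by 0.14 at 1% O2 and by -0.17 at <0.1% O2 on the log2 scale. A gene was called lower or higher when limma gave an adjusted p under 0.05 over all of these peaks. Of the glial and glioma markers, *Vim*, *Nes*, *Cd44*, *Sox2*, *Olig2* and *Gfap* had a promoter peak in every library and *Aqp4* in none. Of the 5 with a compared peak, *Vim* (-0.54), *Nes* (-0.57), *Cd44* (-0.50) and *Olig2* (-0.89) were themselves lower at <0.1% O2, and *Sox2* did not pass. *Ptprc*, *Cd3e* and *Aif1* (immune cells) and *Rbfox3* (neurons) had none in any library, and *Pecam1* (endothelium) had a peak in 5 of the 6. Of 7 hypoxia reference genes with a compared peak, *Ankrd37* and *Bnip3* were higher at both levels (0.70 and 0.38 at 1% O2) and *Egln3* at 1% O2 only by the test. *Ldha* was lower at <0.1% O2 (-0.55, adjusted p = 0.000546), and *Slc2a1*, *Vegfa* and *Car9* did not pass at either level.

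Upstream sequences are shown for 8 members so that the promoters behind some of the main changes can be read. The choice was made among 20 members with at least 100 bases before their start that lie in no annotated exon. *Fen1* (-0.90) and *Ercc3* (-0.74), which fell more than *Polb* at <0.1% O2, were not among these 20. *Ercc3* was left out of the choice, and its absence does not mean that it fell short of the 100 bases. Shown are, of these 20, the 4 with the deepest falls at <0.1% O2 (*Ercc6*, *Polb*, *Neil2* and *Tdg*), the 2 with the smallest change (*Ddb2* and *Xpa*) and the 2 with the highest values (*Ercc2* and *Mlh3*). Each is up to 150 bases of GRCm38.p6, 5′ to 3′ on the strand of the gene, ending just before an exon. Capitals mark 6 motifs on either strand: GGGCGG (the GC box bound by Sp1), CCAAT (bound by NF-Y), ACGTG and GCGTG (the cores of the hypoxia response element, ACGTG also being part of the E-box CACGTG), TGACGTCA (the cAMP response element) and GCGCATGC (bound by Nrf1). Motifs can overlap, as GCGTG and TGACGTCA do in *Polb*. The stretches lie at chr14:32513371-32513520 (*Ercc6*, plus strand), chr8:22653419-22653568 (*Polb*, minus), chr14:63193542-63193691 (*Neil2*, minus), chr10:82629678-82629827 (*Tdg*, plus), chr2:91236983-91237132 (*Ddb2*, minus), chr4:46196312-46196461 (*Xpa*, minus), chr7:19381860-19382009 (*Ercc2*, plus) and chr12:85270600-85270749 (*Mlh3*, minus).
Ercc6: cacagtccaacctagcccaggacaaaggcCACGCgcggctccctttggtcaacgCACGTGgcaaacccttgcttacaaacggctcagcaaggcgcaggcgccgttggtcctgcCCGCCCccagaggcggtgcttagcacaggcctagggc
Polb: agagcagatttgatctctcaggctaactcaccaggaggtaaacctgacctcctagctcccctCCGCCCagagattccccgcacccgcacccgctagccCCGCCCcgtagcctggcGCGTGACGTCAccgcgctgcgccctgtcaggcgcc
Neil2: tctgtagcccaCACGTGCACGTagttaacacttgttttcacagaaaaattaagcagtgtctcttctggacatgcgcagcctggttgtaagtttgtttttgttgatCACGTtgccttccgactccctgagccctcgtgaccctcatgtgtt
Tdg: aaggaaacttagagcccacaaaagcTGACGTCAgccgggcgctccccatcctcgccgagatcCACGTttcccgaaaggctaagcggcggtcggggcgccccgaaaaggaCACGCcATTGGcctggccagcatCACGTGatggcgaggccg
Ddb2: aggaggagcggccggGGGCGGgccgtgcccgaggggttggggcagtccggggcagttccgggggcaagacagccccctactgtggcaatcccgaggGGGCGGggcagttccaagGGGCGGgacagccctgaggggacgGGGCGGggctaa
Xpa: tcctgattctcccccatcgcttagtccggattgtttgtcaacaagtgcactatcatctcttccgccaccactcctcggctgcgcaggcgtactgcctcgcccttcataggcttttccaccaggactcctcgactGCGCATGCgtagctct
Ercc2: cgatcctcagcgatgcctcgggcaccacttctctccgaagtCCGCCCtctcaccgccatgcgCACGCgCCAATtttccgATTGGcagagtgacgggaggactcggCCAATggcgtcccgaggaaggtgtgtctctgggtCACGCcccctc
Mlh3: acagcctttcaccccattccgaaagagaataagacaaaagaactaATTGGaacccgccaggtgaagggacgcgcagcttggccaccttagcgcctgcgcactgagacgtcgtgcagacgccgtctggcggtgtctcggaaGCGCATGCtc

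The letters differ within each kind of response. *Ercc6* held 2 copies of ACGTG as 1 palindromic CACGTG, *Tdg* held 3 copies of ACGTG and *Neil2* held 4, while *Polb* held none and had 2 GC boxes. Among the promoters that changed least, *Ddb2* held 4 GC boxes and *Xpa* none. In the RefSeq promoter table (250 bases before to 50 after a start, GRCm38.p6), 30 of the 35 members were matched. ACGTG was found in 43.3% of their windows, in 27.5% of the 11160 windows whose start lay in a compared promoter peak and in 19.6% of all 32851 windows. CCAAT was found in 60.0%, 39.1% and 37.4%, GCGCATGC in 13.3%, 6.12% and 2.71%, GGGCGG in 73.3%, 70.0% and 35.7%, GCGTG in 66.7%, 56.0% and 32.4%, and TGACGTCA in 3.33%, 3.60% and 1.79%. A match of letters is a description and does not show that a factor was bound.

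Every member had a promoter peak in all 6 libraries, and in 34 of the 35 the peak covered an annotated start. The exception was *Smug1*, whose nearest peak lay 895 bp from a start. The promoters were among the more open ones before hypoxia: ranked by fold among the 28432 peaks, the members had a median percentile of 82.3 at 21% O2, against 60.8 for all 12959 promoter peaks. By summit pileup the medians were 76.9 and 65.2. Further peaks in the windows of 3 members came and went. A second peak at *Xpa*, a scaffold protein of nucleotide excision repair, lay 1406 bp from its start, had pileups of 59 and 45 at 1% O2 and, at <0.1% O2, 40 and 34. Neither 21% O2 library listed it. At *Ercc1* a second peak 1902 bp away had pileups of 59 and 65 at 1% O2 and 52 in 1 of the 2 libraries at <0.1% O2, and at *Msh3* one 1245 bp away had pileups of 78 and 109 at 21% O2, was not listed at 1% O2 and had 101 in 1 library at <0.1% O2. The part of the lower coverage at 21% O2 in the peaks absent there was not tested.

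At <0.1% O2 the repair promoters that passed the test were mostly lower. Of the 35 members, 17 were lower than at 21% O2 and 5 higher, and 13 did not pass, with 26 of the 35 log2 changes below 0, while 38.4% of all promoter peaks were lower and 14% higher. The members' shares were 48.6% and 14.3%. At 1% O2, 5 (14.3%) were lower and 7 higher, against 19.8% and 14.5% of all promoter peaks. With scaling by genome coverage, 16 were lower and 1 higher at <0.1% O2, against 34.6% and 2.89% of all promoter peaks, so that 94.1% of the calls were lower in place of 77.3%. At 1% O2 that scaling gave 0 lower and 3 higher (limma, with 0 lower also at an unadjusted p under 0.05), against 3.18% and 9.03% of all promoter peaks. With the trend with GC content subtracted, 7 were lower and 4 higher at 1% O2, against 19.0% and 13.0% of all promoter peaks. Of these calls 63.6% were lower in place of 41.7%, with *Parp2* and *Ddb2* newly lower. The median log2 change of the members was -0.27 at <0.1% O2, against -0.19 for all promoter peaks. At 1% O2 it was -0.12, against -0.044, and scaling by genome coverage, which moves all peaks alike, turned both, to 0.023 and 0.097. Set beside promoter peaks within 5 percentile points of the same mean pileup, the median member was lower by a further -0.11 at <0.1% O2 and -0.070 at 1% O2, with 21 and 22 of the 35 below their neighbours' median. By the rank of the fold, set beside promoter peaks within 5 points of the same rank, the median member was higher by 0.77 points at <0.1% O2 and 0.41 points at 1% O2. The deepest falls were at *Fen1*, *Ercc6* and *Ercc3*, and the largest rises at *Smug1*, *Mlh3* and *Ercc1*. Without 21% O2 replicate 2 or either 1% O2 library, fewer members were lower and fewer higher at 1% O2. The members' median log2 change was -0.087 without the former, and -0.12 and -0.11 without 1% O2 replicates 1 and 2. At <0.1% O2 fewer were higher without 21% O2 replicate 2 or <0.1% O2 replicate 2, with medians of -0.24 and -0.28. The matching shares of all promoter peaks fell in each of these cases too.

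**Figure D1:**
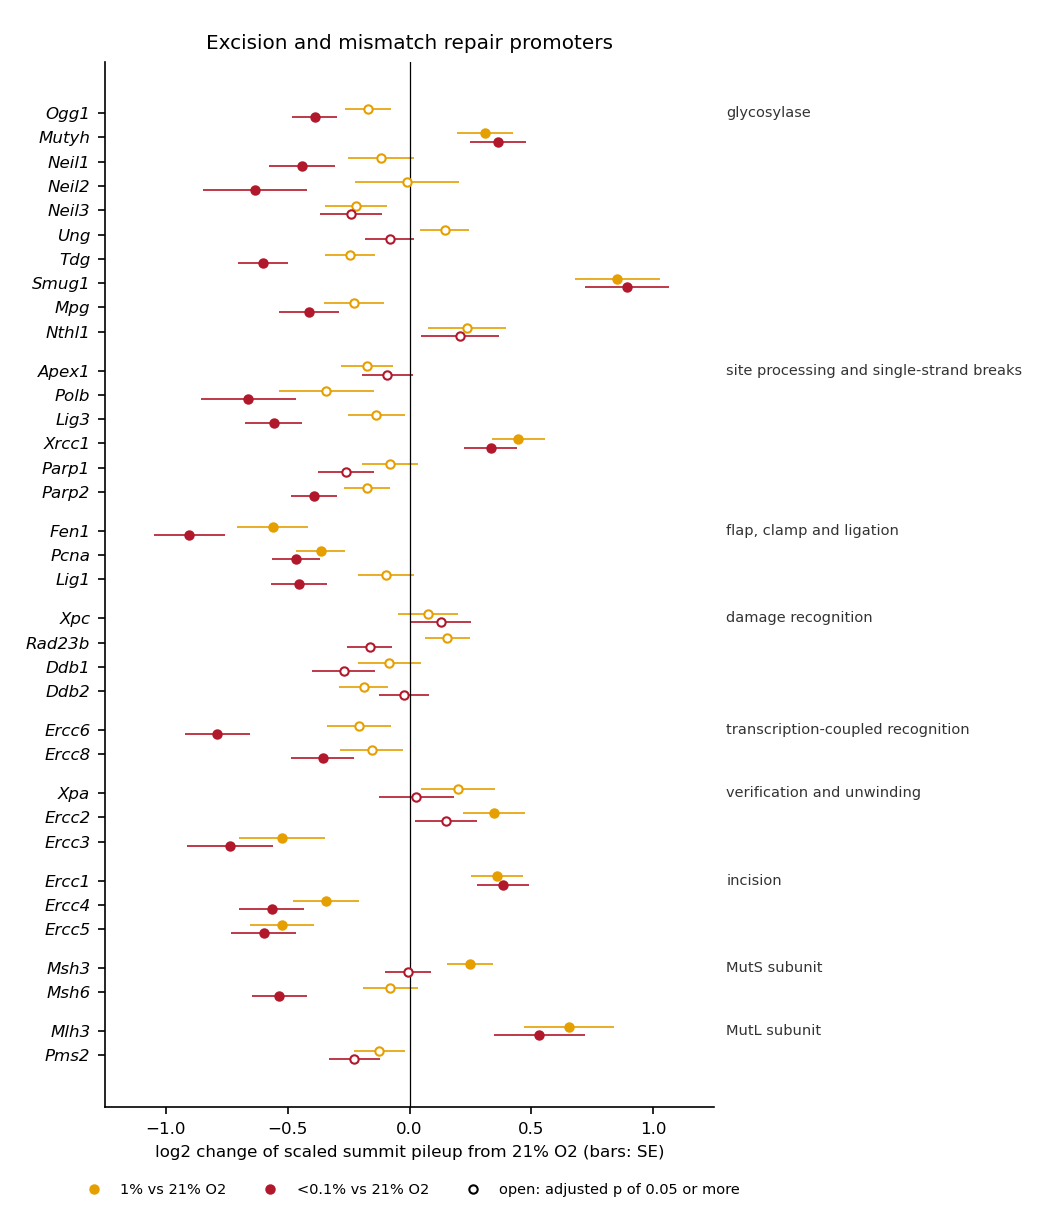
Log2 change of the scaled summit pileup from 21% O2 for all 35 members (x axis), ordered by the step in repair (y axis). Orange points are 1% O2 and red points <0.1% O2, bars are the standard error from limma with 2 libraries per condition, and open points did not pass an adjusted p of 0.05. The red points run from -0.90 at *Fen1* to 0.89 at *Smug1*.

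The glycosylases, which recognise and cut out single damaged bases, gave calls in both directions. At <0.1% O2, 5 of the 10 were lower (*Ogg1*, *Neil1*, *Neil2*, *Tdg* and *Mpg*), 2 were higher (*Mutyh* and *Smug1*) and 3 did not pass, against 38.4% lower and 14% higher among all promoter peaks. *Ogg1*, which removes 8-oxoguanine paired with cytosine, had scaled pileups of 382 and 400.3 at 21% O2, 334 and 361 at 1% O2 and, at <0.1% O2, 288 and 309. Both hypoxic pairs lay below both normoxic libraries, and its log2 change was -0.39 ± 0.094 (SE, n = 2 per condition) at <0.1% O2 (adjusted p = 0.000792) and -0.17 at 1% O2 (adjusted p = 0.152). *Mutyh*, which removes the adenine misplaced opposite the same lesion, moved the other way. Its peak (chr4:116807135-116808095) had 158 and 141 at 21% O2, 174 and 197 at 1% O2 and, at <0.1% O2, 181 and 204, with log2 changes of 0.31 and 0.36 (adjusted p = 0.0315 and 0.00865). The 4 hypoxic libraries were all above the normoxic ones, and the peak also covers the start of *Toe1* on the opposite strand.

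*Tdg*, which excises thymine and oxidised methylcytosine opposite guanine, had 283 and 296 at 21% O2, 251 and 238 at 1% O2 and, at <0.1% O2, 178 and 204 at chr10:82629348-82630407. The levels fell in order of oxygen with no overlap between conditions, by -0.24 at 1% O2 (adjusted p = 0.0611) and -0.60 ± 0.10 at <0.1% O2 (adjusted p = 9.83e-06). *Neil2*, a glycosylase for oxidised bases in bubbles and single strands, is a weaker peak (chr14:63193342-63194121) with 65.7 and 42.7 at 21% O2, 58.1 and 47.8 at 1% O2 and, at <0.1% O2, 31.3 and 37.2. Only the <0.1% O2 libraries stood apart, with a log2 change of -0.63 ± 0.21 (adjusted p = 0.0139), against -0.0084 at 1% O2 (adjusted p = 0.981). The related *Neil1* and *Neil3* changed by -0.44 (adjusted p = 0.00722) and -0.24 (adjusted p = 0.121) at <0.1% O2. *Ung*, the main uracil glycosylase, and *Nthl1*, which removes oxidised pyrimidines, changed by -0.081 and 0.21 and did not pass (adjusted p = 0.532 and 0.297).

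*Smug1*, another uracil glycosylase, gave the largest rise of the list. Its nearest peak (chr15:103165537-103166197) had 51.8 and 39.5 at 21% O2, 88.8 and 75.2 at 1% O2 and, at <0.1% O2, 78.3 and 90.0. Each hypoxic library was above both normoxic ones, with log2 changes of 0.85 ± 0.17 and 0.89 ± 0.17 (adjusted p = 0.000198 and 6.7e-05). This peak lies on no start and is among the lowest in fold, at percentiles from 0.6 to 5.7. A second peak in the window (chr15:103163128-103163767), in which the RefSeq promoter window of *Smug1* lies, changed by 0.23 at 1% O2 (adjusted p = 0.139) and 0.45 at <0.1% O2 (adjusted p = 0.00261). Another peak (chr15:103168672-103169229) changed by 0.59 at 1% O2 (adjusted p = 0.00855) and 0.41 at <0.1% O2 (adjusted p = 0.0591). The peak of *Mpg*, which removes alkylated purines, joins 2 maxima, and its fall of -0.41 at <0.1% O2 (adjusted p = 0.00545) compares summits at -1281 and -1514 bp from the start at 21% O2 with summits at -1428 bp in both <0.1% O2 libraries, negative values lying upstream. The call of *Mutyh* at 1% O2 was lost without 21% O2 replicate 2 or 1% O2 replicate 2, with scaling by genome coverage and with the GC subtraction. At <0.1% O2 the call of *Mutyh* was lost without 21% O2 replicate 2 or <0.1% O2 replicate 2, and with scaling by genome coverage. That of *Neil1* was lost without 21% O2 replicate 2 or <0.1% O2 replicate 1. That of *Neil2* was lost without 21% O2 replicate 1 or <0.1% O2 replicate 1, and with the GC subtraction. That of *Mpg* was lost without 21% O2 replicate 2.

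After the glycosylase, the abasic site is cut by *Apex1*, filled by *Polb* and sealed by *Lig3* on the scaffold *Xrcc1*, while *Parp1* and *Parp2* sense the single-strand break. Of these 6, *Polb*, *Lig3* and *Parp2* were lower at <0.1% O2, *Xrcc1* was higher, and *Apex1* and *Parp1* did not pass, against 38.4% lower and 14% higher among all promoter peaks. *Apex1* had 220 and 242 at 21% O2, 215 and 195 at 1% O2 and, at <0.1% O2, 205 and 229, so that the <0.1% O2 libraries overlapped the normoxic ones, with a change of -0.091 ± 0.11 (adjusted p = 0.505). *Polb*, the gap-filling polymerase of base excision repair, had 74.1 and 54.4 at 21% O2, 51.6 and 48.6 at 1% O2 and, at <0.1% O2, 40.0 and 40.3 (chr8:22653001-22653892). All 4 hypoxic libraries were below the normoxic ones, with -0.66 ± 0.20 at <0.1% O2 (adjusted p = 0.00535) and -0.34 at 1% O2 (adjusted p = 0.172). *Lig3* (chr11:82780705-82781863) had 204 and 184 at 21% O2, 172.7 and 179.5 at 1% O2 and, at <0.1% O2, 144 and 120.0. Its log2 change was -0.56 ± 0.12 at <0.1% O2 (adjusted p = 0.00017) and -0.14 at 1% O2 (adjusted p = 0.377).

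The partner of *Lig3* did not follow it. *Xrcc1* (chr7:24546420-24547403) had 172 and 154 at 21% O2, 209 and 235 at 1% O2 and, at <0.1% O2, 202 and 208. It was higher at both levels, by 0.45 ± 0.11 (adjusted p = 0.00135) and 0.33 ± 0.11 (adjusted p = 0.0113), with every hypoxic library above both normoxic ones. *Parp2* was lower by -0.39 at <0.1% O2 (adjusted p = 0.000785) and *Parp1* changed by -0.26 (adjusted p = 0.0568). The *Parp2* peak also covers the start of *Rpph1*, the RNA of ribonuclease P. At <0.1% O2 the call of *Polb* was lost without 21% O2 replicate 1, and with the GC subtraction. That of *Xrcc1* was lost there without 21% O2 replicate 2 or <0.1% O2 replicate 2, and with scaling by genome coverage. At 1% O2 that of *Xrcc1* was lost without 1% O2 replicate 2.

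The 3 genes that base excision repair shares with replication were all lower at <0.1% O2, as were 38.4% of all promoter peaks. *Fen1* trims the displaced flap, *Pcna* is the sliding clamp that holds the polymerase, and *Lig1* seals the nick. *Fen1* (chr19:10203670-10205306) had 127 and 141 at 21% O2, 83.1 and 99.0 at 1% O2 and, at <0.1% O2, 67.8 and 75.5. The 3 conditions did not overlap, and the change was -0.56 ± 0.14 at 1% O2 (adjusted p = 0.0023) and -0.90 ± 0.14 at <0.1% O2 (adjusted p = 3.52e-06), or 0.535 times the normoxic level. The summit of this peak, which also covers the start of *Tmem258*, stood at -673 and -554 bp from a *Fen1* start at 21% O2 and between 29 and 61 bp in the 4 hypoxic libraries, so the heights compare different points of a peak 1637 bp wide. *Pcna* fell by 0.36 and 0.47 on the log2 scale at 1% and <0.1% O2 (adjusted p = 0.00369 and 0.000199). *Lig1* changed by -0.096 at 1% O2 (adjusted p = 0.547) and by -0.45 at <0.1% O2 (adjusted p = 0.00146). At <0.1% O2 the calls of *Fen1* and *Pcna* held with each library left out and that of *Lig1* was lost without 21% O2 replicate 2 or <0.1% O2 replicate 1, while at 1% O2 that of *Fen1* was lost without 1% O2 replicate 1 and that of *Pcna* without 21% O2 replicate 2 or 1% O2 replicate 1.

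**Figure D2:**
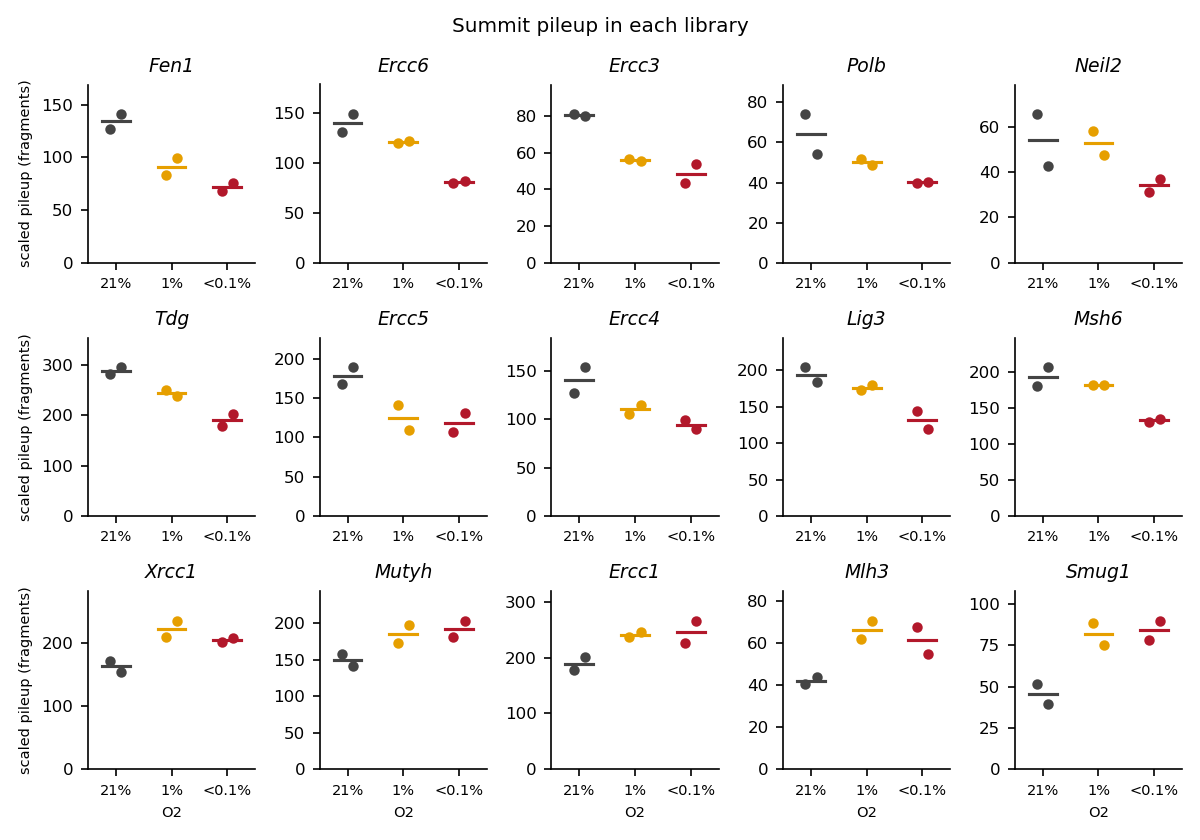
Scaled summit pileup in fragments (y axis, from 0) in each of the 6 libraries by O2 level (x axis) for the 10 members with the largest falls and the 5 with the largest rises at <0.1% O2. Points are libraries and bars are the mean of 2. At *Ercc6* and *Msh6* the 1% O2 libraries stayed near the 21% O2 ones and the <0.1% O2 libraries stood apart, at 79.2 and 81.7 for *Ercc6* and 131.3 and 135.5 for *Msh6*.

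In nucleotide excision repair, the genes that find damage across the genome did not pass the test at either level, while both genes of transcription-coupled recognition were lower at <0.1% O2, where 38.4% of all promoter peaks were lower. Of the 4 recognition genes, limma called 0 at either level, and at an unadjusted p under 0.05 it gave 0 at 1% O2 and 1 lower at <0.1% O2. Under alternatives 3 of them were called: *Ddb1* lower at both levels without 21% O2 replicate 1, *Ddb2* lower at 1% O2 with the GC subtraction and *Rad23b* higher at 1% O2 with quantile normalization. The difference between the recognition and transcription-coupled genes was not tested. *Xpc*, which binds the distorted helix, had 136 and 176 at 21% O2, 161 and 165 at 1% O2 and, at <0.1% O2, 155 and 184, with changes of 0.076 and 0.13 (adjusted p = 0.666 and 0.413). The 3 conditions overlapped. Its partner *Rad23b* changed by -0.16 at <0.1% O2 (adjusted p = 0.142). The ultraviolet damage sensor subunits *Ddb1* and *Ddb2* changed by -0.27 and -0.022 (adjusted p = 0.0842 and 0.877), and the normoxic libraries of *Ddb1* differed widely, at 144 and 212.

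*Ercc6*, the Cockayne syndrome B protein that reads the stalled polymerase, had the deepest fall of this pathway. Its peak (chr14:32513353-32514032) had 130.1 and 148 at 21% O2, 119 and 121 at 1% O2 and, at <0.1% O2, 79.2 and 81.7. The change was -0.21 ± 0.13 at 1% O2 (adjusted p = 0.225) and -0.79 ± 0.13 at <0.1% O2 (adjusted p = 7.5e-06). Between the hypoxia levels it was lower by -0.58 (adjusted p = 0.00145). *Ercc8*, the Cockayne syndrome A protein, changed by -0.36 at <0.1% O2 (adjusted p = 0.0226), a call lost under 6 of 14 alternatives: 3 other scalings (by genome coverage, quantile and cyclic loess), the GC subtraction, and without 21% O2 replicate 2 or <0.1% O2 replicate 2. Its peak also covers the start of *Ndufaf2*.

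Verification and unwinding use *Xpa* and the helicases *Ercc2* and *Ercc3* of TFIIH, a complex that also serves transcription. *Xpa* had 72.7 and 96.1 at 21% O2, 99.3 and 92.9 at 1% O2 and, at <0.1% O2, 82.6 and 87.9. Its groups overlapped (log2 change 0.028 at <0.1% O2, adjusted p = 0.895). *Ercc2* and *Ercc3* went opposite ways at 1% O2. *Ercc3* had 81.1 and 80.1 at 21% O2, 56.5 and 55.7 at 1% O2 and, at <0.1% O2, 43.5 and 53.8, with -0.52 ± 0.18 (adjusted p = 0.0192) and -0.74 ± 0.18 (adjusted p = 0.000806). *Ercc2* rose by 0.35 at 1% O2 (adjusted p = 0.0295) and changed by 0.15 at <0.1% O2 (adjusted p = 0.347). At 1% O2 both calls were lost without either 1% O2 library or without 21% O2 replicate 1, and that of *Ercc3* also without 21% O2 replicate 2.

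The incision step makes a cut on each side of the lesion. *Ercc1* and *Ercc4* form the nuclease on the 5′ side and *Ercc5* is the one on the 3′ side. By pileup the partners *Ercc1* and *Ercc4* moved in opposite directions. By the rank of the fold both changed downward at <0.1% O2, *Ercc1* by -2.23 points without a call and *Ercc4* by -12.3. *Ercc1* had 178 and 201 at 21% O2, 238 and 246 at 1% O2 and, at <0.1% O2, 227 and 267 (chr7:19344528-19345646). It was higher by 0.36 ± 0.11 and 0.38 ± 0.11 (adjusted p = 0.00792 and 0.00329), all hypoxic libraries lying above the normoxic ones. *Ercc4* (chr16:13109268-13110422) had 127 and 154 at 21% O2, 106 and 115 at 1% O2 and, at <0.1% O2, 99.2 and 90.0. It was lower by -0.34 ± 0.13 and -0.57 ± 0.13 (adjusted p = 0.0424 and 0.000692). *Ercc5* (chr1:44147232-44148493) had 168 and 189 at 21% O2, 141 and 109 at 1% O2 and, at <0.1% O2, 106 and 130.4, with -0.52 ± 0.13 and -0.60 ± 0.13 (adjusted p = 0.00202 and 0.000323). For these 3 genes the hypoxic and normoxic libraries did not overlap. At <0.1% O2 the calls of *Ercc4* and *Ercc5* held with each library left out. That of *Ercc1* was lost there without <0.1% O2 replicate 2, and with scaling by genome coverage. At 1% O2 the calls of these genes were lost with that scaling and without 1% O2 replicate 2. That of *Ercc4* was also lost without other single libraries and that of *Ercc1* without 21% O2 replicate 1.

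Of the 4 mismatch repair genes, 1 was lower (*Msh6*), 1 higher (*Mlh3*) and 2 did not pass at <0.1% O2, too few to set against the 38.4% and 14% of all promoter peaks. *Msh3* and *Msh6* are MutS proteins, the former for loops and the latter for single mismatches. *Msh3* had 292 and 290.3 at 21% O2, 336 and 357 at 1% O2 and, at <0.1% O2, 296 and 284, a rise of 0.25 ± 0.094 at 1% O2 (adjusted p = 0.0358) and a change of -0.0063 at <0.1% O2 (adjusted p = 0.963). *Msh6* (chr17:87974626-87975691) had 180 and 207 at 21% O2, 183 and 183 at 1% O2 and, at <0.1% O2, 131.3 and 135.5. Only the <0.1% O2 libraries stood apart, with -0.53 ± 0.11 (adjusted p = 0.000183), against -0.078 at 1% O2 (adjusted p = 0.624). *Mlh3* and *Pms2* are MutL proteins. *Mlh3*, a narrow peak of 431 bp at chr12:85270250-85270680, had 40.6 and 43.8 at 21% O2, 62.1 and 70.7 at 1% O2 and, at <0.1% O2, 67.8 and 54.8. It was higher at both levels, by 0.65 ± 0.19 (adjusted p = 0.00531) and 0.53 ± 0.19 (adjusted p = 0.017), and *Pms2* changed by -0.23 at <0.1% O2 (adjusted p = 0.073). The call of *Mlh3* was lost at 1% O2 without 1% O2 replicate 2 and at <0.1% O2 without 21% O2 replicate 1 or <0.1% O2 replicate 1. That of *Msh3* was lost at 1% O2 without 21% O2 replicate 2 or either 1% O2 library. Scaling by genome coverage also removed the calls of *Mlh3* at <0.1% O2 and *Msh3* at 1% O2. With the trend with GC content subtracted, *Msh6* changed by -0.11 at <0.1% O2 (adjusted p = 0.494) and *Msh3* by 0.25 at 1% O2 (adjusted p = 0.0556), neither passing.

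Between 1% and <0.1% O2, 8 members were lower, and none of these 8 passed once the trend with GC content was subtracted. They were *Neil2*, *Tdg*, *Lig3*, *Lig1*, *Rad23b*, *Ercc6*, *Msh3* and *Msh6*, or 22.9% of the list, against 21.2% of all promoter peaks lower and 4.31% higher. The changes ran from -0.63 at *Neil2* to -0.26 at *Msh3*. By limma 0 members were higher, also at an unadjusted p under 0.05, and 29 of the 35 log2 changes were below 0. The 5 members that were higher than at 21% O2 in both hypoxic conditions, *Mutyh*, *Smug1*, *Xrcc1*, *Ercc1* and *Mlh3*, changed by -0.12 to 0.054 between the levels. Without 1 library of either hypoxic condition fewer members were lower, and so was a smaller share of all promoter peaks. The members' median log2 change was then -0.22 to -0.19, against -0.20 with all 6 libraries.

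The rank of the fold, which sets each peak against its own surroundings, gave fewer calls. A rank was called when the ranks of the hypoxic and normoxic pairs did not overlap and their means differed by at least 10 percentile points. No test is given for ranks, since the smallest p of an exact permutation test in a design of this size is 0.33. At <0.1% O2, 9 members were lower (*Neil2*, *Neil3*, *Nthl1*, *Polb*, *Lig3*, *Ercc6*, *Ercc3*, *Ercc4* and *Ercc5*) and 1, *Ercc2*, was higher, against 26.5% and 12% of all promoter peaks. The 1 higher member became 3 with any single 21% or <0.1% O2 library left out, and *Ercc2* was not among them without 21% O2 replicate 1. At 1% O2, 3 were lower (*Neil3*, *Ercc3* and *Ercc5*) and 3 higher (*Ercc2*, *Msh3* and *Mlh3*), against 16.5% and 11.9%. *Polb* dropped most, from percentiles of 76.0 and 55.5 at 21% O2 to 38.7 and 38.5 at <0.1% O2. *Ercc6* held 93.6 and 95.9 at 21% O2 and 95.8 and 92.0 at 1% O2 and, at <0.1% O2, 71.7 and 70.3. The median change of rank was -1.38 points at <0.1% O2, against -2.52 for all promoter peaks, and it turned to 1.49 when the trend with GC content was subtracted. Among the members lower by pileup at <0.1% O2 and not called by rank were *Tdg*, *Pcna* and *Fen1*, with changes of 0.58, 3.97 and -8.12 points. None of those higher by pileup was called by rank there. The changes were 8.90 at *Mutyh*, 3.52 at *Smug1*, -1.07 at *Xrcc1*, -2.23 at *Ercc1* and 4.48 at *Mlh3*. *Neil3* and *Nthl1*, lower by rank, did not pass by pileup.

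**Figure D3:**
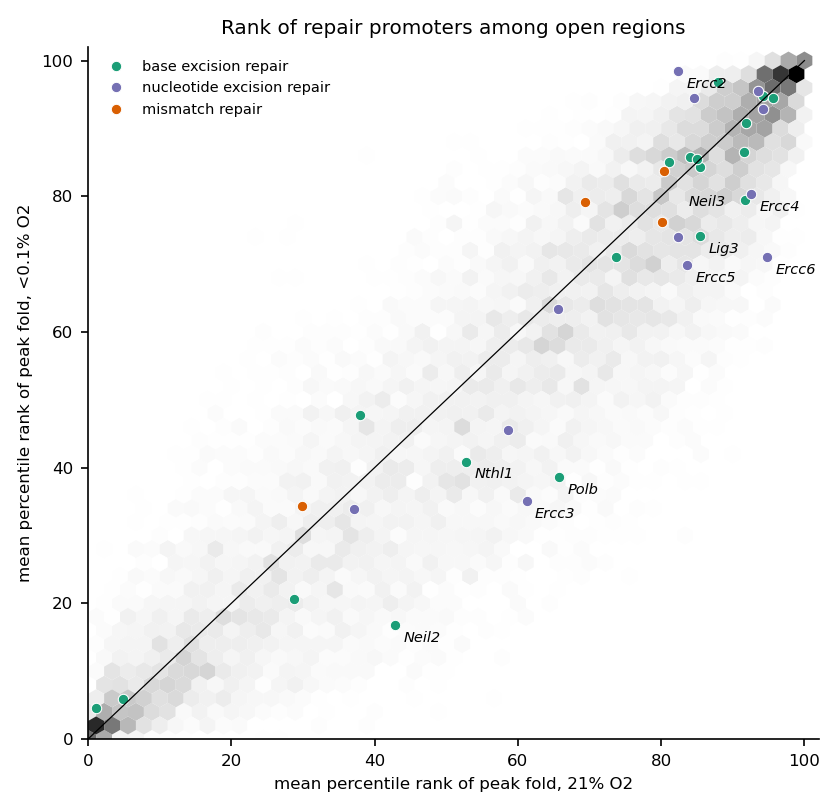
Mean percentile rank of the peak fold at 21% O2 (x axis) and <0.1% O2 (y axis), both from 2 libraries. Grey hexagons are all 12959 promoter peaks, darker where more lie, coloured points are the 35 members by pathway, the line marks equal rank, and members called by rank are named. Most members sit in the upper right corner, with *Ercc6*, *Polb*, *Ercc3* and *Neil2* furthest below the line.

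GC content moved with the change at <0.1% O2 across promoters, while at 1% O2 Spearman's rho over the same peaks was 0.012 (Pearson's r = 0.010). Over the 12959 promoter peaks, Spearman's rho between GC content and the log2 change at <0.1% O2 was -0.291 (Pearson's r = -0.316), while over the 35 members it was 0.014 (r = -0.0089). At 1% O2 the members' rho was 0.328 (r = 0.224). For peak width the members' rho was -0.324 at 1% O2 (r = -0.43) and -0.157 at <0.1% O2 (r = -0.32), against -0.163 and -0.181 over all promoter peaks. The peaks share libraries, so these are descriptions. When the trend with GC content was subtracted in each library, 13 members were lower and 6 higher at <0.1% O2, against 25.1% and 18.7% of all promoter peaks. The calls of *Neil2* (-0.49), *Polb* (-0.51), *Lig1* (-0.21), *Ercc8* (-0.22) and *Msh6* (-0.11) were lost and *Neil3* became lower and *Ung* higher. Between 1% and <0.1% O2, where 8 members were lower without it, the same subtraction gave 1 lower member, *Fen1*, which had not passed before, and 3.30% of promoter peaks were lower. The members' peaks had a median GC content of 59.0%, near the 59.5% of all promoter peaks.

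**Figure D4:**
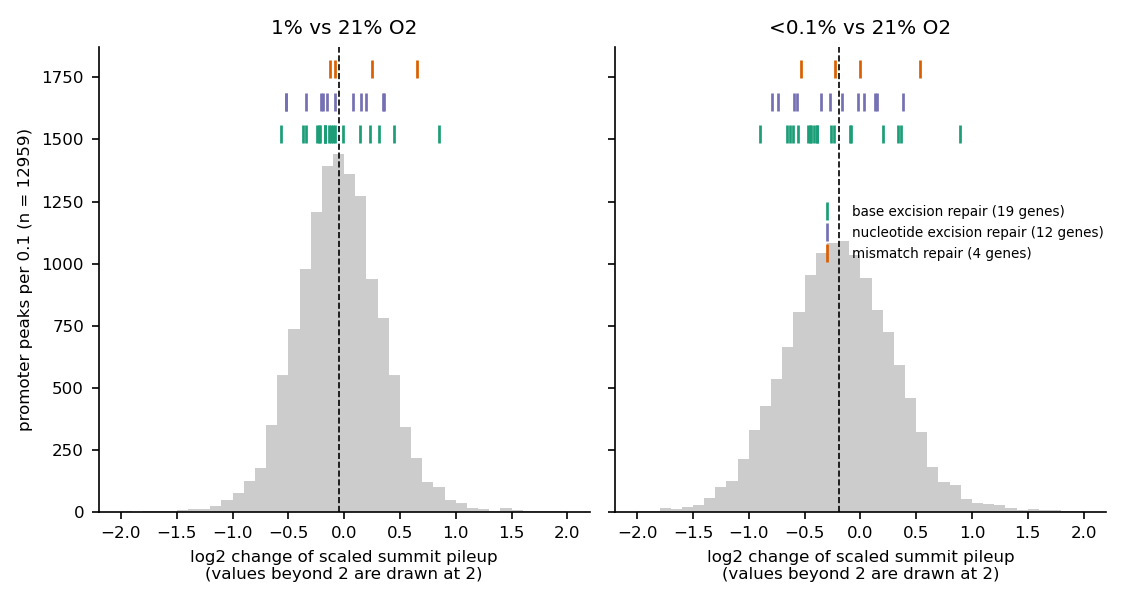
Number of promoter peaks (y axis) by log2 change of scaled summit pileup (x axis) at 1% O2 (left) and <0.1% O2 (right) from 21% O2, in grey, with the 35 members as coloured ticks above, a row for each pathway. The dashed line is the median of all promoter peaks, -0.044 on the left and -0.19 on the right. The members lie within the spread of promoters on both sides of that line.

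Features that the list did not use were compared between the members that were lower, higher or not called at <0.1% O2, without a test. The median GC content of their peaks was 58.9%, 58.7% and 60.2%, the median width 1078, 961 and 1047 bp, and the median percentile of the normoxic pileup 76.3, 73.5 and 79.0. The median percentile of the normoxic fold was 82.4, 65.6 and 82.3, lowest in the 5 higher members. The letters ACGTG were found in 9 of the 14 matched windows of members that were lower (*Ogg1*, *Tdg*, *Lig3*, *Parp2*, *Fen1*, *Ercc6*, *Ercc8*, *Ercc5* and *Msh6*), in 0 of the 5 that were higher and in 4 of the 11 not called. GCGTG, the other core, was found in 10, 2 and 8 of them, GGGCGG in 9, 3 and 10, CCAAT in 8, 4 and 6, GCGCATGC in 2, 1 and 1 and TGACGTCA in 1, 0 and 0. The window of *Smug1*, among the higher, lies outside its compared peak. Many of these promoters are shared: 15 of the 35 peaks also cover the start of a gene on the opposite strand. The share of all promoter peaks that cover a start was 19.4%, counted by peak, whereas a choice by gene takes in shared peaks more often. A shared peak cannot be assigned to either gene. It was the case for 7 of the 17 lower members, 1 of the 5 higher and 7 of the 13 not called.

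The other genes of the same pathways were counted from a list of 40, drawn up by function. At <0.1% O2, 21 were lower and 5 higher, or 52.5% and 12.5%, with a median of -0.29, against 38.4% and 14% of all promoter peaks, and at 1% O2, 11 (27.5%) were lower and 4 higher, against 19.8% and 14.5%. Of 8 further base excision repair genes, 4 were lower and 1 higher at <0.1% O2. Among 18 of nucleotide excision repair, 7 (38.9%) were lower and 2 higher, near the shares of all promoter peaks, and of its 8 TFIIH subunits 5 were lower (*Gtf2h1*, *Gtf2h2*, *Gtf2h3*, *Cdk7* and *Ccnh*), 1 was higher (*Gtf2h4*) and 2 did not pass (*Gtf2h5* and *Mnat1*, at 0.064 and -0.24). *Gtf2h1* changed by -0.85 (adjusted p = 1.02e-06) and *Gtf2h4* by 0.66 (adjusted p = 0.000337). Of 14 genes of mismatch removal and gap filling, 10 were lower and 2, *Pold2* and *Pold4*, higher. All 5 clamp loader genes were lower at <0.1% O2, from -0.36 at *Rfc3* (adjusted p = 0.0261) to -1.36 at *Rfc4* (adjusted p = 2.34e-08). *Exo1*, the exonuclease of mismatch repair, had the deepest fall of the 40, of -1.37 ± 0.14 (adjusted p = 7.67e-10), and *Parg*, which removes the chains that *Parp1* makes, changed by -1.20 ± 0.16 (adjusted p = 1.17e-07). The genes named in this paragraph were chosen after their values were seen.

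**Figure D5:**
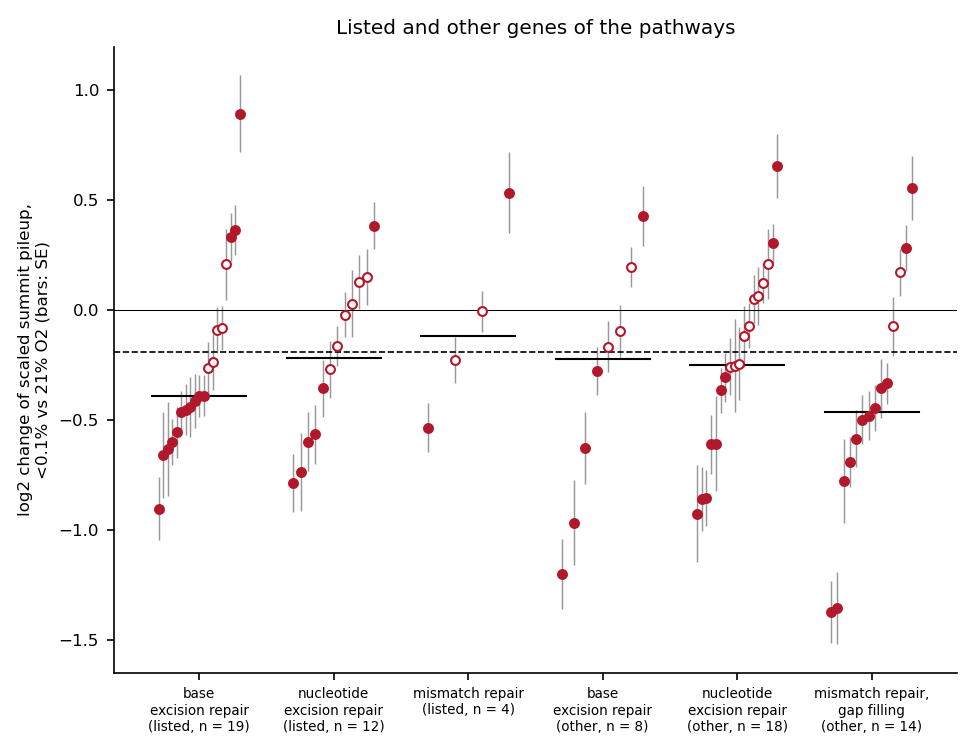
Log2 change of scaled summit pileup at <0.1% O2 from 21% O2 (y axis) for the 35 members and 40 other genes of the pathways (x axis), sorted within each group. Bars are the standard error from limma, open points did not pass an adjusted p of 0.05, short lines are group medians and the dashed line is the median of all promoter peaks. The group medians run from -0.12 in mismatch repair (4 genes) to -0.46 in the 14 other genes of mismatch removal and gap filling.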

How the data were processed

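ATACseq was measured in 6 libraries of GL261 cells, 2 at each oxygen level. The authors trimmed the reads with Trimmomatic, aligned them to mm10 with Bowtie2 2.2.5, removed duplicates (Picard) and mitochondrial reads and called narrow peaks in each library with MACS2 2.1.1.2. The deposited peak lists give a fold enrichment ratio, a -log10 p-value and a -log10 q-value at the summit of each peak, and a score that was not used here. Read counts on peaks were not used here.

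The summit pileup and its background were recovered from each deposited fold and -log10 p-value. Stretches of over 200 bp shared by peaks of the 2 libraries of a condition were merged over the 3 conditions. The 28432 with a peak in all 6 libraries were compared. Log2 pileups were scaled by the median log ratio and fitted with limma 3.58.1 (R 4.3.3), with a mean-variance trend and all 6 libraries in 1 fit without a replicate block, and p-values were adjusted by Benjamini-Hochberg over all 28432 peaks. The fit was also run on data simulated from its own model, which cannot test whether the libraries meet that model. Ranks, features and motifs were computed with pandas 2.3.3, scipy 1.17.1 and pysam 0.24.0. Each gene was given the peak nearest to a start within 2000 bp. All 35 members were accounted for by step, and values per library were given for the 12 largest absolute changes at <0.1% O2, the 3 largest rises and the first gene of each step; *Mutyh* and *Xrcc1* were added, and the limit of 100 exon-free bases for sequences was set, after their values were seen. The members and lists were chosen with earlier results of these data known. Alternatives were 3 other scalings, subtraction of the GC trend, a replicate block, a pseudocount, a filter on low pileups, other ranks and windows, and each library left out in turn. Coverage of 2.16 to 3.35 limits the precision of low peaks.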

Additional observations from a re-analysis of the deposited data

Results flagged for a closer look

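The response at <0.1% O2 differed from that at 1% O2, both measured against 21% O2, in 8 genes by limma's test of the difference between the 2 hypoxic conditions. These are 22.9% of the 35, near the 21.2% of all promoter peaks that were lower. The difference in log2 change was -0.63 at *Neil2* (adjusted p = 0.0297), -0.36 at *Tdg* (adjusted p = 0.00987), -0.42 at *Lig3* (adjusted p = 0.00802) and -0.36 at *Lig1* (adjusted p = 0.0219). It was -0.32 at *Rad23b* (adjusted p = 0.0106), -0.58 at *Ercc6* (adjusted p = 0.00145), -0.26 at *Msh3* (adjusted p = 0.0442) and -0.46 at *Msh6* (adjusted p = 0.00305). With the GC trend subtracted none of these 8 passed, and the value at *Rad23b* turned to 0.022. The calls of *Ercc6* and *Msh6* held with each library left out, and the other 6 were each lost without at least 1 library of the hypoxic conditions.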

How the results depend on the processing

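Of the calls by pileup, 11 of 22 at <0.1% O2 (*Ercc3*, *Ercc4*, *Ercc5*, *Ercc6*, *Fen1*, *Lig3*, *Ogg1*, *Parp2*, *Pcna*, *Smug1* and *Tdg*), 1 of 12 at 1% O2 (*Smug1*) and 0 of 8 between the hypoxia levels were kept under every alternative, that within 500 bp giving no value for *Smug1*. At 1% O2, coverage scaling gave 0 lower and 3 higher members, against 3.18% and 9.03% of all promoter peaks. The GC subtraction gave 7 lower and 4 higher, against 19.0% and 13.0%. With each library left out the counts changed, as did the shares of all promoter peaks, and the members' median log2 change was -0.18 to -0.087. At <0.1% O2, coverage scaling gave 1 higher member, against 2.89% of all promoter peaks. Leaving out a 21% or <0.1% O2 library lowered the count of higher members there, as it did for all promoter peaks. With each library left out the members' median was -0.32 to -0.24. Between the hypoxia levels the GC subtraction gave 1 lower member, with *Rad23b* reversed at 0.022, and leaving out libraries gave 3 to 10. Fold ranks at 1% O2 gave 0 lower and 6 higher members within whole lists, 5 higher with at least 5 points and 1 lower with at least 15, and without single libraries 4 to 6 lower, 2 to 5 higher and a median of -1.39 to 3.34. At <0.1% O2, 4 were lower within whole lists or with at least 15 points. There, 3 were higher by rank of -log10 q, by rank of pileup or within whole lists, 4 with the GC subtraction and 5 with at least 5 points, and 3 in each case without single libraries. The median was -3.81 by -log10 q, -4.17 by pileup, 1.08 within whole lists, 1.49 with the GC subtraction, -2.23 for the strongest peak, and -5.76 to -0.59 without single libraries. The causes were not tested. Libraries with the same replicate number did not deviate together (r from -0.051 to 0.0079 over 28432 peaks), and the replicate block left the counts by pileup at 5 and 7, 17 and 5, and 8 and 0, and by rank gave 1 more lower member at <0.1% O2, *Ddb1*. Within 500 bp of a start, 34 members had a peak, *Smug1* being absent.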
